A study of Mus musculus with 96 samples.

Results

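The genes described here are 7 genes that interferons are known to induce. Gbp2, Gbp3 and Irgm1 encode GTPases of cell-autonomous immunity. Erap1, Tap1 and B2m act in the presentation of peptides by MHC class I, and Irf1 encodes a transcription factor. They were taken by symbol from the deposited count table, where each matched 1 of 36205 gene rows, and their levels are given in 61 single mouse embryonic stem cells. Gbp2, Gbp3, Irgm1 and Erap1 were chosen by their values in an earlier pass over these same counts, namely how far they varied against naive pluripotency genes, and the set was proposed with those values known. Its variability and its relation to pluripotency genes are therefore descriptions. All 7 had at least 10 counts in at least 10 cells, as did 10868 genes in all.

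The study measured RNA and DNA of the same single cells. The labels describe wild-type E14 embryonic stem cells with C57BL/6 as the strain or background. RNA was parted from DNA by the G&T-seq method. Of 96 wells, 76 held cells kept in serum/LIF, that is in serum plus leukaemia inhibitory factor, 16 held cells kept in 2i medium, which contains inhibitors of differentiation signals, and 4 held no cell. The values below are for 61 serum/LIF cells, and the other wells were not analysed here. No separate cultures are named, so the cells count as 1 sample of 1 condition. No test, standard error or p-value was computed from them, and rank correlations describe these cells only.

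Interferons signal through cell-surface receptors and JAK kinases to STAT transcription factors, which bind the GAS element, or with IRF9 the interferon-stimulated response element (ISRE). Irf1 is an early target and itself binds ISRE-like sequences, as in MHC class I and GBP genes. Guanylate-binding proteins and immunity-related GTPases act on the vacuoles of intracellular pathogens. For MHC class I, the proteasome cuts proteins, the TAP transporter carries peptides into the endoplasmic reticulum, ERAP1 trims them, and β2-microglobulin (B2m) pairs with the heavy chain. Pluripotent stem cells are known for a weak interferon response and low MHC class I.

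RefSeq promoter sequences were available for all 7 genes, as windows from 250 bases before to 50 bases after each start on GRCm38.p6. They were searched on both strands for an ISRE core, GAAANNGAA, and for the GAS element, TTCNNNGAA, where N is any base. An ISRE core was found in the promoters of 5 of the 7 genes and of 9.76% of all 27025 genes, or in 5 of their 9 windows and 8.56% of all 32851 windows. Irf1 alone of the 7 genes had a GAS match, which 9.55% of all genes and 8.30% of all windows had. Neither set of letters was in the Tap1 window, which says nothing about other sequence near that gene. The matched stretches are shown because most of these genes share the letters, with the matches in capitals, read 5′ to 3′ on the strand of the gene.
Gbp2, chr3:142620545-142620631, plus strand: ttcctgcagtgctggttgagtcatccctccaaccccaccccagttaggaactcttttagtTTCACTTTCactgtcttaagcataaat
Gbp3, chr3:142559940-142560044, plus strand: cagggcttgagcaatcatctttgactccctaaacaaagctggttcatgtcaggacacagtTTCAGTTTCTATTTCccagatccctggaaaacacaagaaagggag
Irgm1, chr11:48871428-48871457, minus strand: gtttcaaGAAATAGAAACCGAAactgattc
Erap1, chr13:74639837-74639866, plus strand: gtccaccTTCACTTTCACTTTCggtcccgg
B2m, chr2:122147488-122147586, plus strand: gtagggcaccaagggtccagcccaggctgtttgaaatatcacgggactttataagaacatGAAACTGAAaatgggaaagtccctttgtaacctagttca
Irf1, chr11:53769864-53769962, plus strand: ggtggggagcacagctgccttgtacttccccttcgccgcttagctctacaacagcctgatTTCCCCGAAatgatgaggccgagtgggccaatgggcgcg

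The ISRE core was read on the strand of the gene in Irgm1 and B2m and on the other strand in Gbp2, Gbp3 and Erap1, where it appears as TTCNNTTTC. Gbp3, Irgm1 and Erap1 each had 2 overlapping matches, which join into 1 capitalised run. Counted back from the RefSeq start, the first base of the match lay at position -58 in Gbp2 and at -44 and -38 in Gbp3. In Irgm1 it lay at -30 and -24, in Erap1 at -9 and -3 and in B2m at -139. The gene coordinates given below are from GENCODE, and the matches of Gbp2, Irgm1 and Erap1 lie within them. All 30 bases shown for Irgm1 and for Erap1 are annotated there as exon. The GAS match of Irf1 began at -90. A match describes the letters of a window and is not a measured binding site.

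Total counts in the 61 cells ran from 2417702 to 6787261 with a median of 4244480, and 5317 to 10032 genes had a count in a cell. Levels are CPM, counts scaled to a fixed library total, on edgeR TMM library sizes, and 3 counts, the most that a count of 0 allows, correspond to 0.447 to 1.24 CPM. Reads carry no molecular identifiers, and limits from a count of 0 cover counting error only. Intervals on shares of cells cover only which cells of this 1 sample were drawn, and say nothing of other cultures. Pou5f1, the core pluripotency factor also called Oct4, had counts in 61 of 61 cells with a median of 1149 CPM, and Sox2 had counts in 54 cells. Of 13 markers of macrophages and other blood cells, 5 were at 0 in every cell, among them Ptprc, Lyz2, Tyrobp and H2-Aa, and 0 of 61 cells allows a share of up to 4.92%. Of the others, Cd68 had counts in 22 cells, Cd74 in 11 and Cd3e in 5. In 5 cells, chromosome 14 gave 1.32% to 2.08% of counts, against 2.40% to 3.75% in the other 56.

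Each of the 7 genes was at 0 in some cells and reached at least 307 CPM in another. Of the 427 gene-by-cell values, 59.7% had at least 1 count and 51.8% had at least 10, so 34 values lay between 1 and 9 counts. The median cell had 3 of the 7 genes at 10 counts or more. In 7 cells none of the genes reached 10 counts, and in 6 cells all 7 did. Between these ends, 7 cells had 1 gene at that level, 6 had 2, 11 had 3, 5 had 4, 7 had 5 and 12 had 6.

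**Figure D1:**
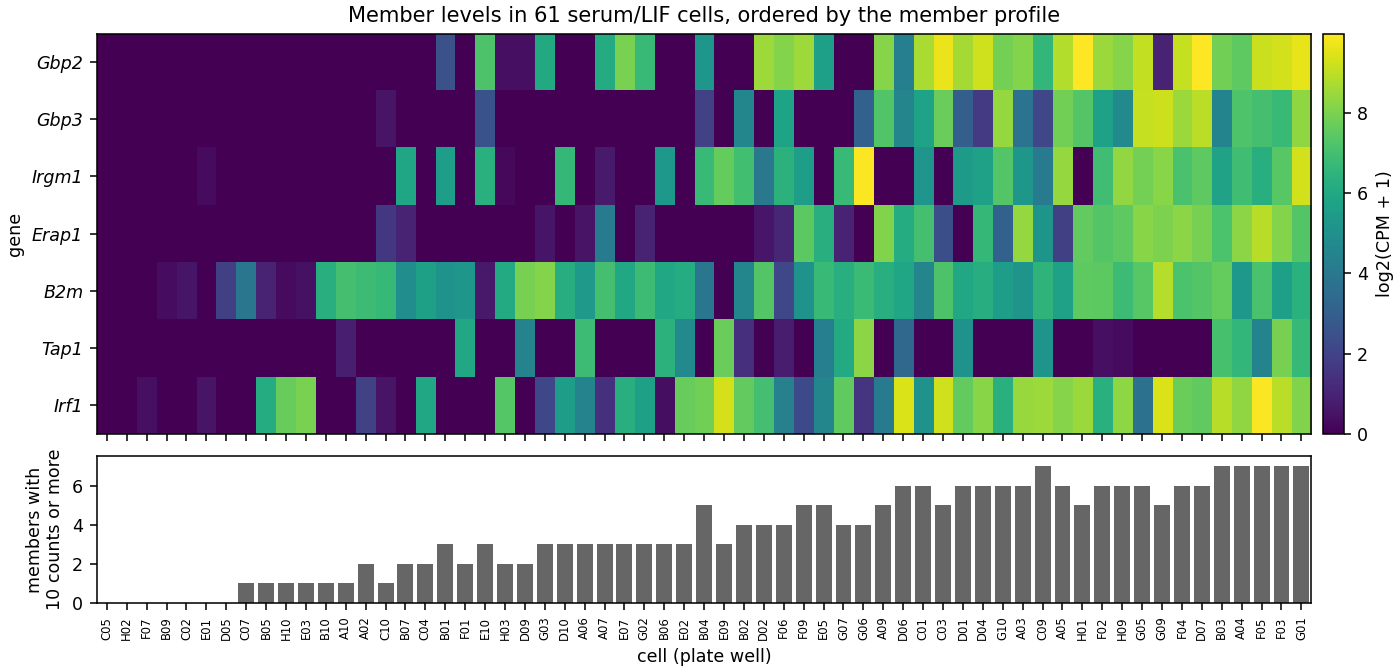
The upper panel plots log2(CPM + 1) of each of the 7 genes (rows) in each of 61 serum/LIF cells (columns, named by plate well), ordered by the mean z-score of the 7 genes, and the lower panel gives the number of genes with 10 counts or more. The GTPases, Erap1 and Irf1 are mostly dark at the left and bright at the right, B2m is bright in most cells, and Tap1 is bright in scattered cells.

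Gbp2, a guanylate-binding protein (ENSMUSG00000028270, chr3:142620602-142638008), ran from 0 to 1018 CPM with a median of 18.9. It had counts in 35 of 61 cells, a share of 57.4% with an exact (Clopper-Pearson) 95% interval of 44.1% to 69.96%. Levels split widely: the highest cell with fewer than 10 counts had 4, and the lowest with more had 21. The 3 highest cells, in wells H01, D07 and C03, had 1018, 1012 and 822 CPM. In the 32 cells with 10 counts or more the median was 290 CPM.

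Gbp3, its neighbour on chromosome 3 (ENSMUSG00000028268, chr3:142560026-142573209), had counts in 28 cells (45.9%, 33.1% to 59.2%). Its lowest and median levels were 0 and its highest 597 CPM, in well G09. Among the 27 cells with 10 counts or more, levels ran from 2.23 to 597 CPM with a median of 55.2. Gbp3 therefore had a wider range among expressing cells than Gbp2, with an SD of 2.53 on the log2 scale against 1.75. The 5 highest cells held 57.2% of the summed Gbp3 CPM.

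Irgm1, an immunity-related GTPase of the IRGM subfamily that regulates the other members (ENSMUSG00000046879, chr11:48861968-48871683), had counts in 34 cells (55.7%, 42.4% to 68.5%). It ran from 0 to 973 CPM with a median of 14.8. A single cell, in well G06, gave 19.4% of the summed CPM, and the next, in G01, had 626 CPM. No cell had more than 2 and fewer than 59 counts, so the counts of the cells fell into 2 well separated groups. Whether cells at 0 lacked the transcript or it was missed in them was not tested.

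Erap1, the aminopeptidase that trims peptides in the endoplasmic reticulum (ENSMUSG00000021583, chr13:74639568-74693201), had counts in 32 cells (52.5%, 39.3% to 65.4%). Its lowest level was 0, its median 0.475 and its highest 486 CPM, in well F05. In 8 of these cells it had fewer than 10 counts, and the 24 others had a median of 169 CPM. Its exons share 834 bases with those of Cast on the opposite strand, and the use of strand in counting is not given, so reads there cannot be told apart. Cast, the calpain inhibitor calpastatin, had counts in 51 cells and a rho of 0.16 with Erap1.

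Tap1, a subunit of the peptide transporter (ENSMUSG00000037321, chr17:34187553-34197225), was the least often detected, in 22 cells (36.1%, 24.2% to 49.4%). Its lowest and median levels were 0 and its highest 307 CPM, in well G06. The 17 cells with 10 counts or more had a median of 68.5 CPM, and the 5 highest held 63.2% of the sum.

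B2m, the light chain of MHC class I (ENSMUSG00000060802, chr2:122147686-122153083), was the most often detected. It had counts in 56 cells (91.8%, 81.9% to 97.3%) and ran from 0 to 466 CPM with a median of 61.99. Its level in the 48 cells with 10 counts or more varied least of the 7 genes, with an SD of 1.09 on the log2 scale. Irf1, which encodes interferon regulatory factor 1 (ENSMUSG00000018899, chr11:53770014-53778374), had counts in 48 cells (78.7%, 66.3% to 88.1%). It ran from 0 to 968 CPM with a median of 63.2, and had an SD of 2.16 on the log2 scale among its 42 cells with 10 counts or more.

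**Figure D2:**
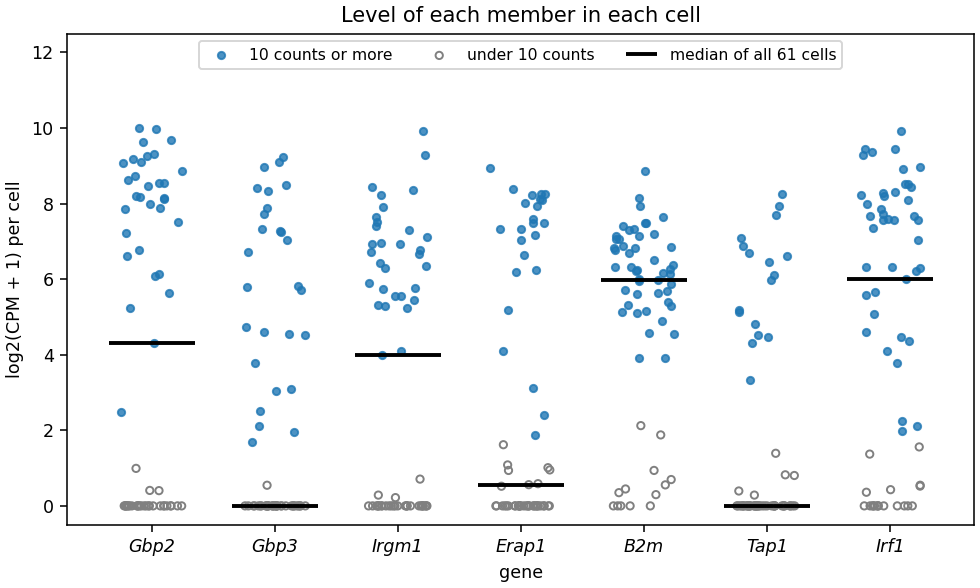
Each point is 1 of 61 cells, the vertical axis gives log2(CPM + 1), filled points have 10 counts or more, open points have fewer, and bars mark the median of all cells. The points form a band at or near 0 and a band well above it, and the median lies at 0 for Gbp3 and Tap1.

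Per kilobase of exon, the mean level was highest for B2m, at 92.5 CPM per kb, then Gbp2 at 75.4 and Irf1 at 40.99. Gbp3 followed at 20.6, Irgm1 at 14.2, Erap1 at 9.53 and Tap1 at 4.78. Spread between cells was as large as these means or larger: on the CPM scale the SD over cells was 82.6 for B2m with a mean of 79.6, and 271 for Gbp2 with a mean of 190. Neighbours in this order therefore overlap from cell to cell. In cells with 10 counts or more the order by median changed, with Gbp2 first at 115 CPM per kb and B2m second at 89.6. The squared coefficient of variation, set against a running median over genes of like mean, was 3.47 times that median for Gbp2, 3.32 for Gbp3, 3.30 for Irgm1, 2.85 for Irf1, 2.17 for Erap1 and 1.92 for Tap1. For B2m it was 0.928, so B2m varied about as much as genes of its level.

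Thinning the libraries hardly changed in how many cells a transcript had at least 1 count. When each cell was thinned to 2417702 counts, Irgm1 went from 34 to 33 cells with a count, and the other 6 genes kept their number of cells. At 10 counts or more, Gbp3 went from 27 to 24 cells, Erap1 from 24 to 22, Irf1 from 42 to 40 and Gbp2 from 32 to 31. Irgm1, B2m and Tap1 kept their number of cells at that level. Each gene's rho with total counts lay between -0.11 and 0.13, and with genes detected between 0.0080 and 0.20. Beside these, the share of chromosome 14 in a cell's counts had a rho of 0.53 with B2m, 0.40 with Gbp2 and 0.40 with Erap1, although none of the 7 genes lies on that chromosome. The 5 cells with a low chromosome 14 share had 0 to 2 of the 7 genes at 10 counts or more. The part of this share in the results below was not tested. Values without those cells are given for list genes whose rho with the profile described below then crosses 0.4 or -0.4.

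The genes often appeared in the same cells. Over the 61 cells, 12 of 21 pairs (57.1%) had a Spearman rho of at least 0.4, with a median of 0.43. For comparison, 0.166% to 3.89% of all genes reached 0.4 with a given member, but 4 of the 7 genes were chosen for a like pattern in these counts, so nothing is read from the difference. These 12 include every pair among Gbp2, Gbp3, Irgm1 and Erap1 and every pair of these with Irf1. The highest was Gbp2 with Erap1, at 0.76, followed by Gbp3 with Erap1 and Gbp2 with Gbp3, both at 0.73. Erap1 and Gbp2 both had 10 counts or more in 23 cells, Gbp2 alone in 9, Erap1 alone in 1 and neither in 28. Erap1 thus lay almost wholly within the Gbp2-positive cells. All 24 Erap1 cells also had B2m, as did 24 cells without Erap1.

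Tap1 stood apart from this pattern. Its 6 pairs ran from -0.0149 with Gbp2 to 0.29 with Irgm1 and with Irf1. Of the 17 cells with Tap1, 9 also had Gbp2, and 23 cells had Gbp2 without Tap1. B2m had a rho of 0.50 with Erap1 and 0.47 with Gbp2, and of 0.37 with Gbp3, 0.29 with Irf1 and 0.17 with Irgm1.

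Rank agreement was lower among the cells that held both genes of a pair. Among cells with 10 counts or more of both genes, the median rho over the 21 pairs was 0.18, and 4 pairs reached 0.4. Gbp3 with Irgm1 had 0.58 over 23 cells and Gbp2 with Gbp3 had 0.56 over 24 cells. Tap1 with Gbp2 and with Irgm1 had 0.65 and 0.71, over 9 and 11 cells. Erap1, close to Gbp2 over all cells, had 0.25 with it over 23 cells that held both.

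**Figure D3:**
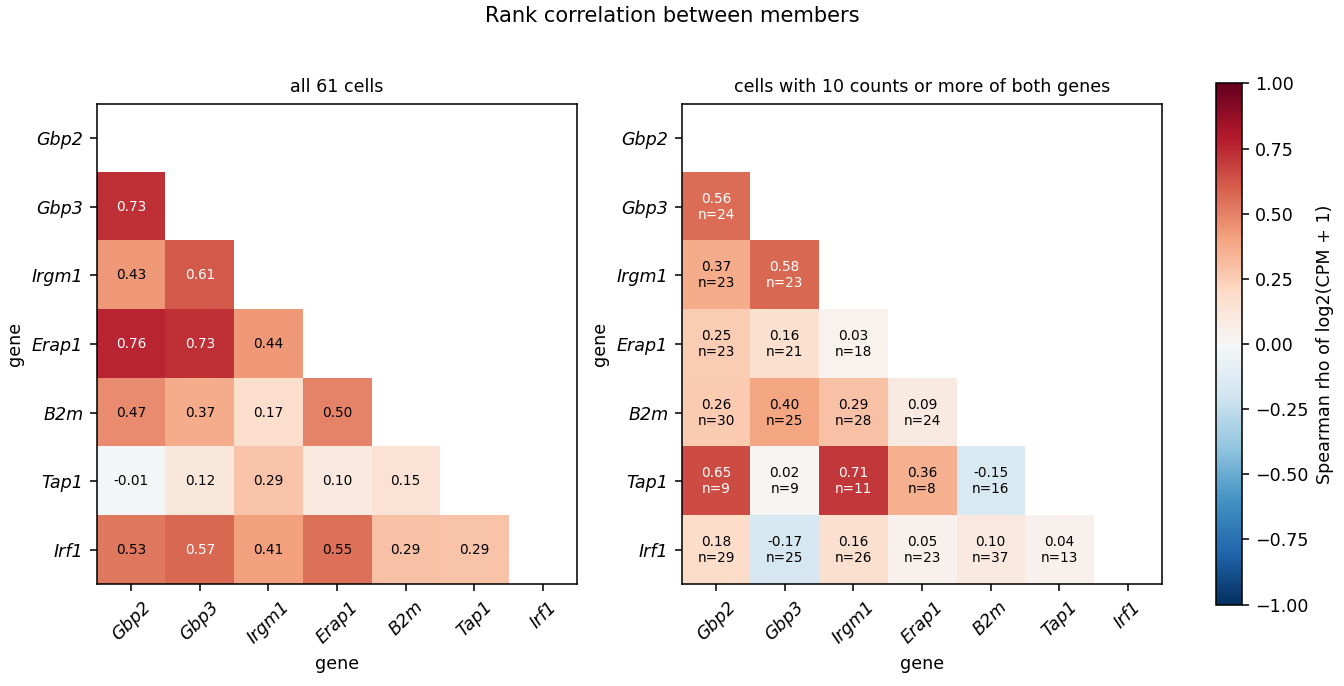
Each square gives the Spearman rho of log2(CPM + 1) for a pair of genes, on the left over all 61 cells and on the right over the cells with 10 counts or more of both, with the number of cells. The left panel has its highest values among Gbp2, Gbp3 and Erap1 and its lowest along Tap1, and most squares are paler on the right.

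To find genes of like pattern, each gene was compared with a member profile, which averages the z-scores of the 7 genes on the log2(CPM + 1) scale and, for one of the 7, leaves that gene out. Of 10861 genes outside the 7, 350 had a rho of at least 0.4 with it, which is 3.22%, and 175 had one of at most -0.4, which is 1.61%. The median over these genes was 0.0273. Within the set, Gbp3 had a rho of 0.76 with the profile of the other 6, Erap1 0.76, Gbp2 0.71, Irf1 0.64, Irgm1 0.56, B2m 0.45 and Tap1 0.23. These values describe genes that were partly chosen for their pattern and are not read against the 3.22%.

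Among the 12 genes nearest to the profile were 4 of the immunoproteasome and its activator. The immunoproteasome is the form of the proteasome that interferon-γ induces and that favours peptides for MHC class I. Psmb8, its β5i catalytic subunit, had a rho of 0.78 and ran from 0 to 646 CPM with a median of 23.9. Psmb10, the β2i subunit, had 0.75. Psme1 and Psme2, the subunits of the PA28 activator, had 0.72 and 0.77. Of the 8 genes on the list of immunoproteasome and activator genes, 5 had a rho of at least 0.4, against 3.22% of all genes, and none one of at most -0.4. This and the other gene lists were chosen with earlier results known, so their counts are not read against such shares. The fifth, Psmb9, encoding β1i, had 0.41, and 0.37 without the 5 cells of low chromosome 14 share. Psmb9 shares 212 exon bases with Tap1, which is part of the profile. With a profile over the GTPases and Erap1 only, Psmb9 had 0.24.

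The constitutive counterparts behaved otherwise. Psmb5, Psmb6 and Psmb7, which the immunoproteasome subunits replace, had counts in 61 of 61 cells and a rho of 0.10, -0.15 and -0.10. Psme1 and Psme2 lie on chromosome 14, and without the 5 cells of low chromosome 14 share their rho was 0.69 and 0.75. Psme2b, a copy of Psme2 elsewhere in the genome whose reads may be shared with it, had 0.78.

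In the peptide-loading list, 4 of 15 genes outside the members had a rho of at least 0.4, against 3.22% of all genes. None had one of at most -0.4, and the median was 0.29. Tapbp, the tapasin that bridges the transporter and MHC class I, had 0.73 with the profile and 0.81 with Gbp2. It had 10 counts or more in 31 of the 32 Gbp2 cells and in 17 of the other 29. The heavy chains H2-K1, H2-D1 and H2-Q4 had 0.65, 0.50 and 0.55, whereas H2-Q7, with counts in 27 cells, had 0.16. Reads of such similar genes may be shared. H2-K1 ran from 0 to 679 CPM with a median of 45.3. At 10 counts or more it was held by 28 of the 32 Gbp2 cells and 10 of the other 29.

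General chaperones of the endoplasmic reticulum that also serve peptide loading were nearer to the centre of all genes. Calr, Canx and Pdia3 had counts in every cell and a rho of 0.29, 0.15 and 0.35. Tap2, the partner subunit of Tap1, had 0.39 with the profile and 0.11 with Tap1. The cytosolic and other peptidases Ide, Npepps, Lnpep, Tpp2 and Lap3 ran from -0.23 to 0.06. Nlrc5, the transactivator of MHC class I genes, had counts in 6 cells and at least 10 in 1.

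Among guanylate-binding proteins, 2 genes outside the members passed the filter. Both had a rho of at least 0.4 with the profile, as did 3.22% of all genes. Gbp7 had 0.69, with counts in 23 cells and up to 356 CPM, and Gbp4 had 0.56, with counts in 12 cells and up to 224 CPM. Gbp8 had counts in 7 cells, Gbp9 in 10, Gbp2b in 2 and Gbp11 in none, which allows up to 4.92% of cells. Gbp5, Gbp6 and Gbp10 were not analysed here. The immunity-related GTPases other than Irgm1 were rare too: Igtp and Tgtp1 had counts in 8 cells each, Irgm2 in 7, Iigp1 in 5 and Tgtp2, as Gbp11, in none. Irgm1 was thus the only one of the 6 listed that passed the filter.

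Of 50-base stretches of their annotated transcripts, Gbp2 shared 2.03% with Gbp2b and Gbp3 shared 3.75% with Gbp7. Irgm1 shared 0.379% with other genes and B2m none, and Erap1 shared 10.7% with Cast. Gbp2b itself had at most 5 counts in a cell.

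The ligands were nearly absent. Of 9 listed interferon genes, 7 were at 0 in all 61 cells, among them Ifng, which encodes interferon-γ, and Ifnb1, which encodes interferon-β. A count of 0 in 61 cells allows a share of up to 4.92% of cells with a count. Ifnk had counts in 2 cells, up to 49.9 CPM, and Ifne in 1 cell, at 10.2 CPM.

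Receptors and signalling genes were present and, apart from Jak1, had a rho within 0.4 of 0. The list held 14 tested genes with a median rho of 0.0389, near the 0.0273 of all genes. Jak1, the kinase shared by type I and type II interferon receptors, had 0.47. Stat2, a transcription factor of the type I interferon response, had 0.087, and Irf9, its DNA-binding partner, -0.17. The receptor chains Ifngr1, Ifngr2, Ifnar1 and Ifnar2 had 0.066, 0.31, 0.011 and -0.015.

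No other interferon regulatory factor passed 0.4 in either direction, and the 6 tested had a median of 0.0322. No gene of nucleic acid sensing passed 0.4 among the 6 tested.

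Other interferon-stimulated genes were split. Of 48 listed, 17 were tested, and 6 of these had a rho of at least 0.4, against 3.22% of all genes. The count is not read against that share. None had a rho of at most -0.4, and the median was 0.28. Isg15, a ubiquitin-like modifier, had 0.62 with counts in 16 cells. The ADP-ribosyltransferases Parp12, Parp9 and Parp14 had 0.57, 0.51 and 0.42, Bst2, the virion tether tetherin, 0.44, and the STAT-interacting Nmi 0.42. Without the cell in well D07, Parp14 and Nmi had 0.39 and 0.38, and without the 5 cells of low chromosome 14 share Bst2 had 0.38.

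Detection in that list ranged from no cell to every cell. Ifit3, Mx2, Oasl1, Ifi44, Cxcl9, Ccl5, Ciita, Lgals3bp and Casp1 were at 0 throughout, which allows up to 4.92% of cells each. Ifit1, Mx1, Oas1a and Rsad2 each had counts in 1 cell. The chemokine gene Cxcl10 had counts in 7 cells, up to 238 CPM. Eif2ak2, the RNA-dependent kinase PKR, had counts in 40 cells and Ifitm3, which restricts virus entry, in 53, with a rho of 0.13 and 0.28, and Ifitm2 had counts in all 61. Ifitm1 had a rho of 0.26, and 0.405 without the 5 cells of low chromosome 14 share.

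**Figure D4:**
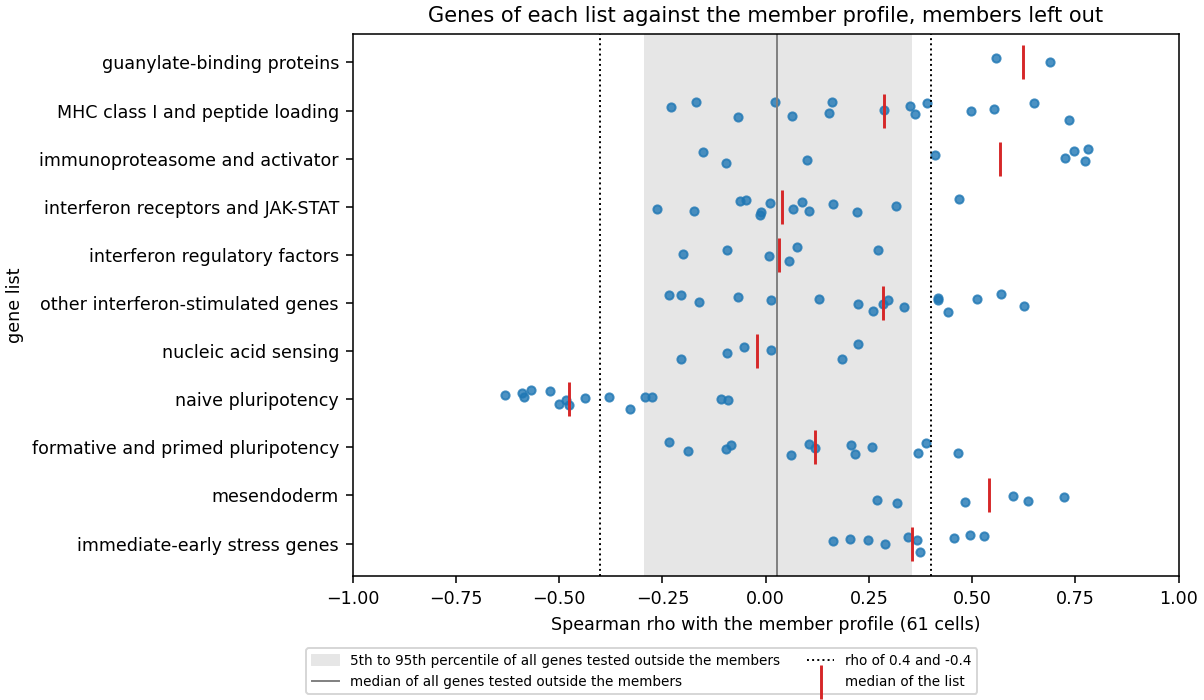
Each point is a gene outside the 7, placed by its Spearman rho with the member profile over 61 cells, in the rows of the list it belongs to; red marks are list medians, grey shading spans the 5th to 95th percentile of all tested genes (-0.293 to 0.351), and dotted lines mark 0.4 and -0.4. The guanylate-binding, immunoproteasome and mesendoderm medians lie to the right of 0.4 and the naive pluripotency median lies to the left of -0.4.

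Most naive pluripotency genes were low in cells high in the profile. Of 15 tested genes of that list, 9 had a rho of at most -0.4, against 1.61% of all genes. None had one of at least 0.4, and the median was -0.48. For Gbp2, Gbp3, Irgm1 and Erap1 this direction was among the reasons for choosing them, so the count is a description and is not read against the share of all genes. Of the others, B2m and Irf1 had a negative rho with 15 of the 15 genes and Tap1 with 14, with medians of -0.41, -0.23 and -0.24. The exception for Tap1 was Tdh, at 0.020, which 10 of the 17 Tap1 cells held. Tdh without Tap1 was held by 21 cells, and 23 cells had neither. A rho of at most -0.4 was reached by 10 of the 15 genes with B2m, 2 with Irf1 and 0 with Tap1. The whole set was proposed with earlier values known, so these counts are descriptions as well.

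Tdh, the threonine dehydrogenase typical of embryonic stem cells, had the lowest value of the list, -0.63. It had 10 counts or more in 5 of the 32 Gbp2 cells and in 26 of the other 29. Esrrb, an orphan nuclear receptor of the naive state, had 10 counts or more in 12 cells. Of these cells, 0 held Gbp2 or Erap1 at 10 counts or more, 1 held Gbp3, 1 Irgm1, 1 Tap1, 4 Irf1 and 5 B2m. Gbp2, Gbp3, Irgm1 and Erap1 were chosen partly for this direction, and no like count over all genes is given. Nothing is therefore read from the overlaps with Tdh and Esrrb. Zfp42 (Rex1) had -0.59 with the profile, Nr5a2 -0.58, Klf2 -0.57, Fgf4 -0.50, Nr0b1 -0.48, Spink1 -0.48 and Jam2 -0.44, the last with -0.34 without the 5 cells of low chromosome 14 share. The other 6 tested genes of the list lay between the limits. Klf4 had -0.091, Nanog -0.11, Klf5 -0.28, Dppa3 -0.29, Tfcp2l1 -0.33 and Fbxo15 -0.38. Nanog was held by 25 of the 32 Gbp2 cells and by 21 of the other 29.

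Mesendoderm genes mark the onset of primitive streak differentiation, and most of those tested went with the profile. Of 10 listed, 6 were tested and 4 had a rho of at least 0.4, against 3.22% of all genes. The list was chosen with earlier results known, so the count is not read against that share. The 4 were Wnt3, the Wnt ligand of the primitive streak, with 0.72, Fgf8 with 0.63, T (Brachyury) with 0.60 and Mixl1 with 0.48. Gsc, Mesp1, Lhx1 and Evx1 had counts in 1, 2, 2 and 10 cells and did not pass the filter. Wnt3 had 10 counts or more in 29 of the 32 Gbp2 cells and in 12 of the other 29. Eomes and Cdx2 had 0.32 and 0.27. Formative and primed markers mostly lay between the limits, with 1 of 13 at 0.4 or more: Krt8, a keratin of simple epithelia, at 0.47. Fgf5, Otx2 and Dnmt3b had 0.12, -0.19 and -0.23.

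Of 10 immediate-early genes, which respond within minutes to growth factors and handling, Junb, Fos and Egr1 had 0.53, 0.50 and 0.46, and the list's median was 0.35. Their part in the pattern was not tested. Of the 12 stem cell markers, 6 had a rho of at most -0.4, against 1.61% of all genes, namely Zfp42, Sall4, Dppa5a, Fgf4, Sox2 and Utf1. Zfp42 and Fgf4 are also on the naive list, so the count is not read against that share. Gdf3 had -0.399, Dppa4 -0.39, Pou5f1 -0.20, Lin28a -0.16, Nanog -0.11 and Tdgf1 0.14. Summed CPM of the 13 blood cell markers ran from 0 to 127 with a median of 1.73 and had a rho of 0.069 with the profile. Summed CPM of the 12 fibroblast markers ran from 0.7997 to 5463 with a median of 331 and had a rho of 0.43. Among these, Tagln, an actin-binding protein, had 0.54, Fn1 0.19 and Vim 0.068. The defining collagens Col1a1, Col1a2 and Col3a1 had counts in 7, 6 and 2 cells and Postn in none. Summed CPM of the 10 primitive endoderm markers ran from 0 to 1372 with a median of 353 and had a rho of 0.497. Its tested genes were Sparc, a matrix protein, at 0.51 with counts in 60 cells, Dab2 at 0.27 and Col4a1 at 0.11, while Sox17 and Foxa2 had counts in 1 cell each. The sums of trophectoderm, endothelial and 2-cell-like markers had a rho of 0.22, -0.16 and -0.20. The part of these markers in the pattern was not tested.

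The 7 genes differed in their closest genes. After Mir6381, Gbp2 was nearest to ENSMUSG00000028269, which has no symbol in the table used, at 0.83, and to Tapbp. Gbp3 and Erap1 were nearest to Psmb8 or its antisense gene Gm20496, at 0.76 to 0.78. Irgm1 was nearest to Gbp3, at 0.61, then to Ktn1, a kinesin receptor of the endoplasmic reticulum, at 0.58. Ktn1 lies on chromosome 14 and had 0.73 with the profile both with and without the 5 cells of low chromosome 14 share. Rcn2, a calcium-binding protein of the endoplasmic reticulum, had 0.75 with the profile.

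B2m kept other company. Its nearest genes were Krt8 and the tropomyosin gene Tpm1, both at 0.74, and Myl12a, a myosin light chain, at 0.72. Gsta4, a glutathione transferase, was at -0.75 and Sox2 at -0.65. In all, 423 genes (3.89%) had a rho of at least 0.4 with B2m, against 18 (0.166%) with Tap1. For the others these shares were 2.45% for Gbp2, 2.1% for Gbp3, 2.15% for Erap1, 0.939% for Irgm1 and 0.837% for Irf1.

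Tap1 and Irf1 were nearest to genes that overlap them on the opposite strand. Psmb9 shares 212 exon bases with Tap1 and had a rho of 0.59 with it, and Gm17334 shares 135 exon bases with Irf1 and had 0.84. Mir6381, a miRNA gene within Gbp2, had 0.91 with Gbp2. Since the use of strand is not given, reads of such pairs cannot be told apart. Psmb8, the next gene beyond Tap1 and not overlapping it, had 0.10 with Tap1, and Tap2, farther along, 0.11. The other near genes of Tap1 were Casp6, a caspase, at 0.56 and Ubald1 at 0.49. Psme2 and Psme2b followed Gm17334 for Irf1, at 0.61 and 0.60.

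**Figure D5:**
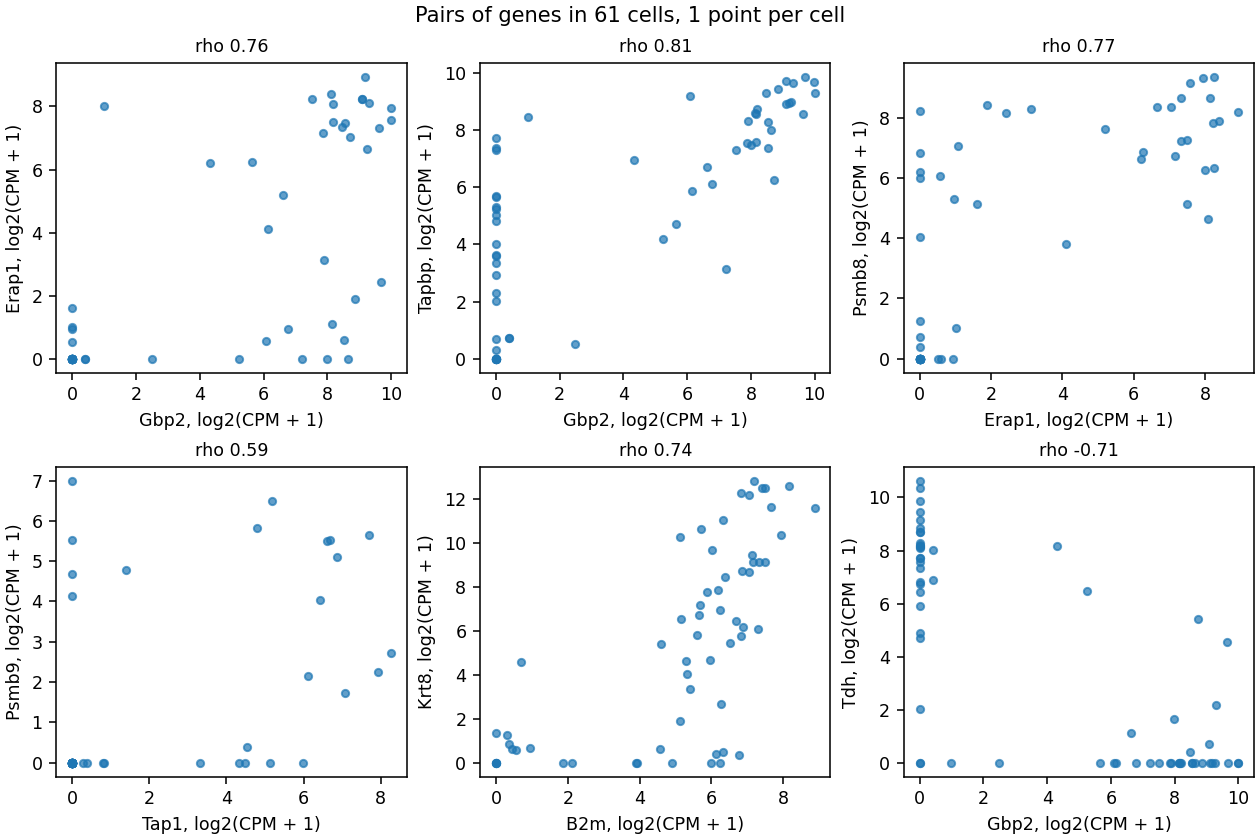
Each panel plots log2(CPM + 1) of a pair of genes in 61 cells, 1 point per cell, with the Spearman rho above it. Gbp2 is high together with Erap1 and Tapbp and Erap1 with Psmb8, B2m with Krt8, Tap1 and Psmb9 share some cells, and Tdh is at or near 0 in most cells with high Gbp2.

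The promoter letters were also counted in genes of like pattern. Among tested genes with a RefSeq promoter, the ISRE core was in 7.93% of 7847 genes, 5.93% of the 253 genes with a rho of at least 0.4 with the profile, and 10.9% of the 119 genes with a rho of at most -0.4. Of 28 genes with a rho of at least 0.6, 4 had it, namely Psme1, Gbp7, Wls and Isg15. The GAS element was in 7.90% of all tested genes, 8.70% of those at 0.4 or more and 10.7% of those at 0.6 or more, the last being Psmb8, Gbp7 and Slc7a11.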

How the data were processed

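Values are from 61 serum/LIF cells. The deposited table holds raw counts per gene, as whole numbers. The submitters' processing notes name build GRCm38, DESeq2, bedtools 2.19.1, SAMtools 0.1.18 and GSNAP. How reads were counted, with which annotation and whether by strand, is not given in the sources used here. A second deposited table holds a normalized signal that the authors scaled from counts. Its factors run across cells, and 1.65% of non-zero values carry their own cell's factor, so it served as an alternative only.

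The 95 spike-in rows, with 14 counts in all, were left out. Library sizes were scaled by TMM (edgeR 4.0.16, R 4.3.3), CPM was computed, and log2(CPM + 1) was used for genes that reached 10 counts in 10 or more cells. Spearman's rho was computed in Python 3.11.15, and the procedure was tested on simulated data. Coordinates and overlaps are from GENCODE M21 on GRCm38, and promoters are from RefSeq.

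The members and gene lists were chosen with earlier results of these data known. Named genes are the members, the 12 highest and 8 lowest rho with the profile, the 3 highest per member, and list genes at or beyond 0.4. Others were named after their values were seen, and results for some genes are not reported here. Each cell is 1 sample, and nothing names separate cultures, so no test was made. Alternatives were other scalings and DESeq2 1.42.0 size factors, pseudocounts, filters, thinning, residuals on genes detected, Pearson's r and subsets of cells.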

Additional observations from a re-analysis of the deposited data

How the results depend on the processing

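Each alternative that gave a value kept the sign of the rho with the profile for the members, the 12 highest and 8 lowest genes and the list genes at or beyond 0.4. Counts of genes at or above 0.4 and at or below -0.4 (350 and 175) were within 1.5 times of these under other scalings, pseudocount 10, Pearson's r, residuals on genes detected, thinning, both other filters, and without D07 or without F07 and B10. With fewer cells they rose, to 642 and 370 in the 33 cells of plate rows A to D and to 679 and 422 in the 28 cells of rows E to H, and 166 and 90 genes were beyond the limit in both sets. Without the 5 cells of low chromosome 14 share, an alternative chosen after seeing the data, they were 246 and 144. A profile over B2m, Tap1 and Irf1 only, also chosen after seeing the data, gave 156 and 80. The share of pairs at or above 0.4 was 80.0% of 15 pairs under a filter of 10 counts in 20 cells, which leaves out Tap1, and 47.6% to 57.1% of 21 pairs under the others. Detection at 10 counts in place of 1 gave 51.8% of gene-by-cell values in place of 59.7%. B2m had a rho of 0.34 with the others in rows A to D, and Psmb9 had 0.28 with residuals on genes detected and 0.24 with a profile over the GTPases and Erap1 only. No paired analysis was possible because the result comes from no test and each sample is 1 cell. Each 0 in 61 cells allows a share of up to 4.92% of cells with a count, a limit set by the number of cells. Depth also limits what can be said of genes at 0, and that share does not cover it.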

Other observations

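The genes with the lowest rho with the member profile held a run of zinc-finger genes of chromosome 4, a region of KRAB zinc-finger gene copies. Of the 8 lowest, Rex2 had -0.69, Zfp978 -0.68, Zfp981 and Zfp600 -0.67 and Gm13147 -0.66. The others were Chchd10, a mitochondrial protein gene, at -0.70, Gm17232, antisense to Tdh, at -0.66, and Gm9531 at -0.65. The interval chr4:145410245-147702553 was chosen after the values were seen and starts and ends at genes at or below -0.4. In it, 17 of 30 tested genes had a rho of at most -0.4, against 1.61% of all genes. None had one of at least 0.4, and the median was -0.48. Since the ends were set by such genes, the count is not read against that share. Chromosome 4, these 17 genes included, held 12.6% of all genes at or below -0.4 and 6.59% of the genes tested. These copies are alike in sequence, so their counts may share reads and the 17 are not independent. Of these, Zfp534 had counts in 60 cells, and Rex2 had counts in 49 with a highest level of 220 CPM.

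Metallothionein 2 (Mt2), which binds metal ions, was among the genes lowest with Gbp3, at -0.60, and had -0.60 with the profile. The receptor chain Ifngr2 had 0.36 with Irf1 alone and 0.31 with the profile.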
